A study of Homo sapiens and Mus musculus with 20 samples.

Results

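Polycomb repressor subunits were followed as 10 named genes, EZH1, EZH2, EED, SUZ12, JARID2, BMI1, RING1, RNF2, CBX7 and CBX8. They were taken by symbol from the IMR90 tables, and 9 of the 10 were listed in all 3 tables, among 17554 genes listed in any of them and 11994 listed in every one. RING1 was not listed in the 3 tables used here and was not analysed. IMR90 is a human fetal lung fibroblast line, labelled wild type (WT) in every group used here. Bulk RNA sequencing was done on 2 libraries each of cells given A485, an inhibitor of the acetyltransferase p300 (Control2 beside it), MS-275 (entinostat), which blocks the class I deacetylases (Control3), or pyruvate (Control6), and all controls are labelled as receiving no treatment. The study treated p300 and the deacetylases as writer and erasers of histone lactylation, and asked with these treatments how lactylation bears on senescence and gene expression. It reported lower lactylation with both A485 and MS-275, and higher lactylation with pyruvate. Histone acetylation was reported as lower with A485 and higher with MS-275. The study describes the cells given pyruvate as senescent, whereas the labels give neither passage nor dose for any group. Every group is 1 cell line, and nothing states that its 2 libraries came from separate cultures, so the p-values measure only the spread between these libraries, which may be technical.

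Polycomb proteins keep genes silent through 2 chromatin complexes. In PRC2, EZH2 or its paralog EZH1 methylates histone H3 at lysine 27 (H3K27), EED binds that mark and raises the enzyme's activity, SUZ12 holds the core together, and JARID2 is an accessory subunit that brings the complex to its targets. In PRC1, the ring finger proteins RNF2 (RING1B) and RING1 place ubiquitin on histone H2A with a partner such as BMI1, and CBX proteins such as CBX7 and CBX8 read the H3K27 mark. The INK4 locus, which encodes the cell cycle inhibitors CDKN2A and CDKN2B, is a textbook Polycomb target in fibroblasts, EZH2 is a known E2F target that rises in dividing cells, and EZH1 is the form known from resting cells.

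The promoters of EZH2 and CBX7 are shown because these members moved in opposite directions in the pyruvate comparison, and CBX7 was the 1 member called in the A485 comparison. Both are from RefSeq (GRCh38.p14), printed 5′ to 3′ on the gene's own strand from 250 bases before to 50 bases after the annotated start. Capitals mark CCAAT boxes (CCAAT or ATTGG) and the E2F motif, searched as TTTCCCGC, TTTCGCGC, TTTGCCGC and TTTGGCGC on both strands. No capital stretch belongs to both motifs.
EZH2: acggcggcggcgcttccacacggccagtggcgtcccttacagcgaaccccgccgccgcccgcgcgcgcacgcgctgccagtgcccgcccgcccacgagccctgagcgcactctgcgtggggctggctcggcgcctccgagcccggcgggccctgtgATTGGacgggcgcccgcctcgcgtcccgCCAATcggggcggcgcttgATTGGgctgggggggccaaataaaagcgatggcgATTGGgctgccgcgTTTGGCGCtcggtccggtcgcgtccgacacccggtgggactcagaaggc
CBX7: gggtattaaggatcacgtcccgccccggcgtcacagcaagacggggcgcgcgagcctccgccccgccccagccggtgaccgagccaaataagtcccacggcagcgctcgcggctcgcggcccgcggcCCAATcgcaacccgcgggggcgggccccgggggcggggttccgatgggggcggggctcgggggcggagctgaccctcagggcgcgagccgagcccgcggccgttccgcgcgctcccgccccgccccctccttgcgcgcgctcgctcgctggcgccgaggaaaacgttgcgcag

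The EZH2 promoter, chr7:148884242-148884541 on the minus strand, held 1 E2F match, which began at base 252 of the 300 shown, and 4 CCAAT boxes. The CBX7 promoter, chr22:39152631-39152930 on the minus strand, held no E2F match and 1 CCAAT box. Of the 9 members with a promoter in the table, RING1 among them, 3 held an E2F match, namely EZH2, EZH1 and SUZ12, against 3.33% of 27305 promoters of this length. With pyruvate, EZH2 and SUZ12 were called higher and EZH1 lower, while JARID2, BMI1 and RNF2 were called higher without an E2F match. Every searched E2F string contains CG. The EZH2, EZH1 and SUZ12 promoters held CG 46, 30 and 40 times, against a median of 14 over all promoters, and the share was not matched for this. A CCAAT box was found in 5 of the 9, EZH2, EED, SUZ12, JARID2 and CBX7, against 35.7% of all promoters. A match is only a run of letters, and was not tested as a binding site.

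Values below are the deposited normalised read counts, one per gene and library, in which the reads of a library were divided by a size factor. Reads recovered per library ranged from 24179065 to 46971227, and all 10 fibroblast markers were listed in every table. The tables of the 3 comparisons were normalised separately, so treated and control libraries were tested only within a table. Differences are log2(value + 1) of treated minus control, tested with limma. A gene passed at an adjusted p under 0.05, and was called where it passed with an absolute log2 fold change above 1. A member's transcript level in bulk RNA is an average over all cells of a library, so fewer cells expressing it and less RNA per cell cannot be told apart.

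**Figure D1:**
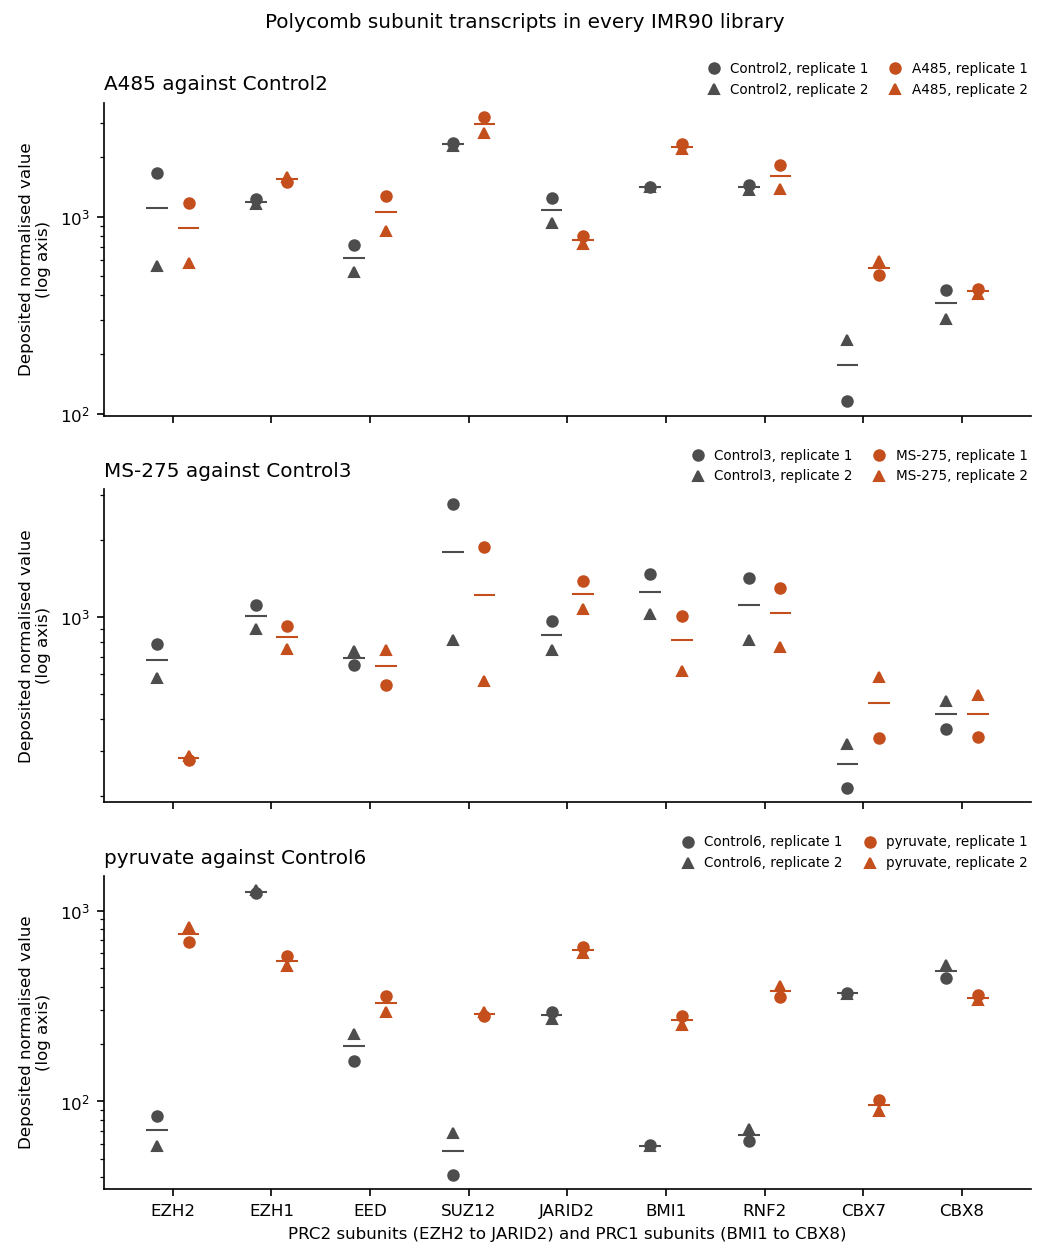
Deposited normalised value (log axis) of the 9 analysed subunits in each of the 12 IMR90 libraries, 1 panel per comparison. Grey symbols are controls, orange symbols are treated libraries, circles and triangles are replicate numbers 1 and 2, and the horizontal marks are means. CBX7 is higher in both A485 libraries, EZH2 is lower in both MS-275 libraries, and in the pyruvate panel the 2 groups of every subunit are apart.

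In the A485 comparison, CBX7 was the 1 member called, rising 3.30-fold, and BMI1 passed the test at 1.61-fold without reaching the limit on size. The other 7 members did not pass, and edgeR and DESeq2 passed and called the same genes. Over all 16084 genes tested, 10.4% were called, 3.31% were called higher, and 4.43% passed and were higher, so the 1 of 9 members called is a share near the background, beside 2 of 9 that passed and were higher. The median log2 fold change of the 9 members was 0.33, against 0.0088 over all genes. In 5 members both A485 libraries lay above both Control2 libraries and in 1 both lay below, where 30.4% and 30.7% of all genes did so.

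Among the PRC2 members, the catalytic subunit EZH2 measured 1659 and 564 in Control2 replicates 1 and 2 and 1169.8 and 583 in A485. The groups overlapped, and the higher library of each group was replicate 1. Its log2 fold change was -0.23 (SE 0.56, adjusted p = 0.82). The difference was -0.50 within replicate number 1 and 0.048 within number 2, and leaving out 1 library at a time gave -1.005 to 0.55, so its direction was decided by single libraries. It was 0.55 without Control2 replicate 1 and 0.27 without A485 replicate 2. The same Control2 library stood apart in dividing-cell transcripts: MKI67, a marker of cycling cells, measured 8396 and 2553 in Control2 and 1639 and 1919 in A485. TOP2A, the topoisomerase of mitotic chromosomes, measured 9379 and 3459 in Control2 and 2879.9 and 2326 in A485. All 18 proliferation genes were lower with A485 (median -1.08), with 0 past an adjusted p of 0.05 in limma or edgeR and 8 in DESeq2. In limma 5 had an unadjusted p under 0.05, where 30.8% of all genes did. The median of the 18 was -1.75 within replicate number 1 and -0.29 within number 2, and their part in the EZH2 values was not tested.

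EZH1, the paralog of EZH2, measured 1222 and 1163 in Control2 and 1502 and 1585 in A485. Both treated libraries were above both controls, but the difference of 0.37 (SE 0.17, adjusted p = 0.21) did not pass. EED, the reader within PRC2, measured 716 and 523 in Control2 and 1271 and 843 in A485, again with no overlap, and a difference of 0.76 (SE 0.29, adjusted p = 0.14) that did not pass. SUZ12, the scaffold, measured 2373 and 2275 in controls and 3208 and 2662 in treated libraries, a difference of 0.33 (SE 0.18, adjusted p = 0.26). JARID2 was the 1 member with both A485 values, 798 and 722, below both Control2 values, 1241 and 925, and its difference of -0.50 (SE 0.23, adjusted p = 0.20) did not pass either. On the deposited scaling 0 of these PRC2 members passed in limma, and 0 passed in edgeR or DESeq2. EED had an unadjusted p under 0.05 in limma (0.039), as did 30.8% of all genes. With each library scaled to the same total, EZH1 (0.77, adjusted p = 0.035), EED (1.15, adjusted p = 0.045) and SUZ12 (0.72, adjusted p = 0.046) passed. That scaling moved all genes upward, to a median of 0.40, and 1670 of 16084 genes were called higher in place of 532. EZH1, EED and SUZ12 were apart from their controls on the high side and JARID2 on the low side.

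Of the PRC1 members, BMI1 measured 1406 and 1411 in Control2 and 2344 and 2194 in A485. The controls lay close together and both treated libraries were well above them, and the difference was 0.69 (SE 0.17, adjusted p = 0.048). In limma this pass was lost without the filter on low values (adjusted p = 0.0503) and without the intensity trend (adjusted p = 0.13). Leaving out any 1 library kept the size (0.64 to 0.73) but not the pass (adjusted p = 0.12 to 0.26). RNF2, the ubiquitin ligase, measured 1450.1 and 1363 in Control2 and 1825 and 1373 in A485, which overlapped, with a difference of 0.17 (SE 0.21, adjusted p = 0.62).

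CBX7 measured 116 and 237 in Control2 and 503 and 599 in A485. The higher control was below the lower treated library, and the difference of 1.72 (SE 0.40, adjusted p = 0.044) was called. It was 2.11 within replicate number 1 and 1.33 within number 2. The call was lost when any 1 of the 4 libraries was left out (1.21 to 2.24, adjusted p = 0.056 to 0.24), and without the intensity trend in limma (adjusted p = 0.10). An antisense gene, ENSG00000279833, covers 17.9% of the exon bases of CBX7, and without a known strand setting the reads of both cannot be told apart. CBX8, the other chromobox member, measured 425 and 302 in Control2 and 429.8 and 407 in A485, with overlap and a difference of 0.22 (SE 0.28, adjusted p = 0.63). Scaling each library to the same total instead put the all-gene median at 0.40 and took the share of calls that were higher from 31.9% to 64.6%, and EED (1.15) and BMI1 (1.08) were called beside CBX7.

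The other genes of the Polycomb system were described from a list of 38 companions, of which 35 were tested with A485. PHC2, a Polyhomeotic subunit of PRC1, was the 1 companion that passed in limma and edgeR (5 passed in DESeq2), and it was called lower, from 5337 and 7939.8 to 3021 and 3380.2 (-1.03, SE 0.23, adjusted p = 0.039). With the trend on GC content and exon length removed it passed without being called (-0.89, SE 0.20, adjusted p = 0.037), which left 0 companions called. Of the rest, 21 were higher and 13 lower, the median over all 35 was 0.12, and the INK4 genes stood at 0.28 for CDKN2A (adjusted p = 0.34) and -0.47 for CDKN2B (adjusted p = 0.22). Fibroblast markers changed in this comparison too, 9 of 10 being called lower (median -2.07, summed value 1853500 and 2230000 in controls and 555160 and 667939 with A485). Of 5 epithelial markers 4 were tested, with 1 called higher and 2 called lower, the 1 endothelial marker tested of 4 was called lower, and no leukocyte marker was listed. The part of these marker changes in the CBX7 and BMI1 values was not tested.

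In the MS-275 comparison, EZH2 stood at 0.419 of its control level, the largest difference of the 9 members, and no member passed in a fit without a term for the replicate number. By limma 0 of 9 members and 0% of 15883 genes were called. At an unadjusted p under 0.05 stood 1 member, EZH2, and 1730 genes (10.9%). edgeR also called 0 members and 0 genes, and DESeq2 called 0 members and 575 genes. Each treated library shares a replicate number with a control, and the members are also given within each number as a description, although no source says what a number marks. Of all genes, 38.6% were higher within both numbers and 40.4% lower within both, beside 2 and 5 of the 9 members.

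EZH2 measured 785 and 578 in Control3 and 276 and 287 with MS-275. Both treated libraries lay below both controls, as did those of 19.3% of all genes, and they differed little from each other. The difference was -1.26 (SE 0.35, adjusted p = 0.32), or -1.51 within replicate number 1 and -1.01 within number 2. Beside it, all 18 proliferation genes were lower within both numbers (median -2.71, 15 at an unadjusted p under 0.05, 0 passing in limma or edgeR and 10 in DESeq2), and their part in the EZH2 values was not tested. MKI67 measured 4235 and 380 in Control3 and 256 and 34.9 with MS-275, which puts the Control3 libraries further apart from each other in MKI67 than in EZH2.

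SUZ12 gave the widest spread of any member here, with 2786 and 811 in Control3 and 1888 and 560.1 with MS-275. Replicate 1 was above replicate 2 in both groups by more than the treatment difference of -0.55 (SE 0.86, adjusted p = 0.94), which was -0.56 within replicate number 1 and -0.53 within number 2. EZH1 measured 1117 and 896 in Control3 and 925 and 750.4 with MS-275, with overlap, and its difference was -0.27 within replicate number 1 and -0.26 within number 2 (adjusted p = 0.91). EED measured 647 and 738 in Control3 and 543 and 742 with MS-275, and its 2 differences, -0.25 within replicate number 1 and 0.0091 within number 2, did not share a sign.

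JARID2 was higher with MS-275, at 1384 and 1075 against 966 and 741 in Control3. The groups did not overlap, and the difference of 0.53 (SE 0.35, adjusted p = 0.70) was nearly the same in both numbers, 0.52 within replicate number 1 and 0.54 within number 2. BMI1 was lower, with 1478 and 1031 in Control3 and 1008 and 616 with MS-275. The higher treated library reached no further than the lower control, and the difference of -0.65 (SE 0.41, adjusted p = 0.69) was -0.55 within replicate number 1 and -0.74 within number 2. RNF2 measured 1425 and 812 in Control3 and 1305 and 763 with MS-275, in which the 2 replicate numbers were further apart than the groups (log2 fold change -0.11, adjusted p = 0.99).

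CBX7 measured 214 and 317 in Control3 and 337 and 583 with MS-275. Both treated libraries were above both controls, as in 19.5% of all genes, and the difference of 0.76 (SE 0.45, adjusted p = 0.66) was 0.65 within replicate number 1 and 0.88 within number 2. CBX8 measured 364 and 468 in Control3 and 339.9 and 497 with MS-275, and its difference of -0.0065 (SE 0.38) was the smallest of the 9. JARID2 and CBX7 were thus the members higher within both numbers, and EZH2, EZH1, SUZ12, BMI1 and RNF2 those lower within both.

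Among the companions, 35 were tested with MS-275, 10 were higher and 20 lower within both numbers, and the median was -0.05, against -0.0084 over all genes. In limma and edgeR 0 passed, in DESeq2 1 (PHF19), and 2 stood at an unadjusted p under 0.05 in limma. The 3 lowest of those below control within both numbers were PHF19, a PRC2 accessory protein, from 1318 and 1424 to 415 and 502 (-1.58, SE 0.32, adjusted p = 0.24), KDM2B (-1.08, SE 0.33, adjusted p = 0.36), which recruits a variant PRC1, and SFMBT1 (-0.86, SE 0.53, adjusted p = 0.68). The 3 highest of those above it were BCORL1 (1.06, SE 0.95, adjusted p = 0.82), BCOR (0.75, SE 0.63, adjusted p = 0.80) and KDM6B (0.52, SE 1.02, adjusted p = 0.96), a demethylase that removes the H3K27 mark. CDKN2A measured 1492 and 2637 in Control3 and 2795 and 4418 with MS-275, and CDKN2B 1189.6 and 883 in Control3 and 2756 and 1907 with MS-275. Both INK4 genes were higher within both numbers and neither passed (adjusted p = 0.63 and 0.37).

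**Figure D2:**
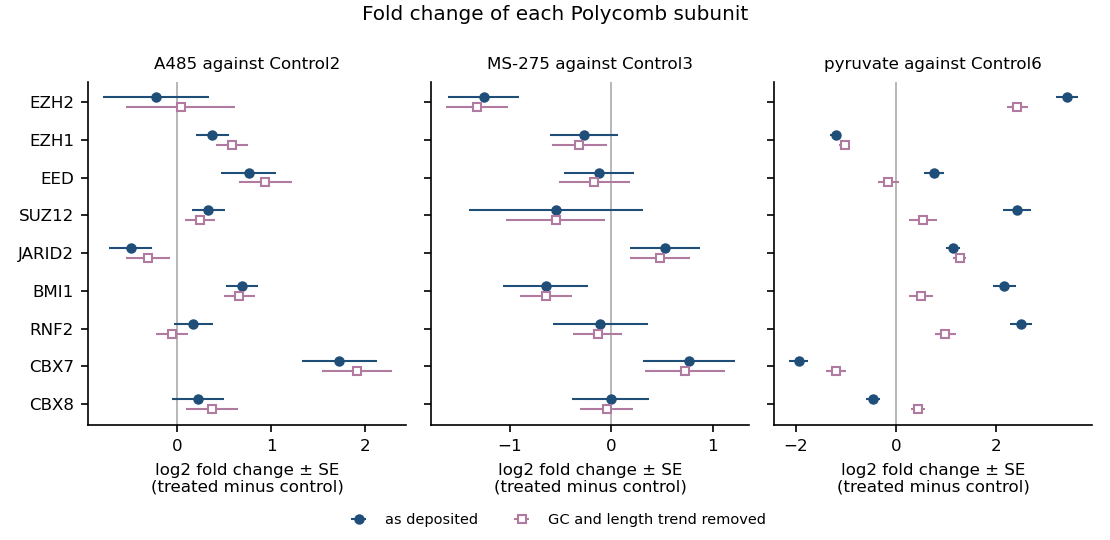
Log2 fold change (treated minus control, whiskers are the SE from limma) of the 9 subunits in the 3 comparisons, with 2 libraries a group. Filled circles are the deposited values. Open squares are the values after removal of the trend on GC content and exon length. Each panel has its own horizontal scale. With pyruvate, EZH2, EZH1, JARID2 and CBX7 stay beyond 1 on either side after the removal, whereas EED and CBX8 cross 0.

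With pyruvate, all 9 members passed, where 80.9% of the 12013 genes tested passed as well. EZH2, SUZ12, JARID2, BMI1 and RNF2 were called higher and EZH1 and CBX7 called lower, which is 5 and 2 of 9 against 31.0% and 23.1% of all genes. No member's groups overlapped: 6 members had both pyruvate libraries above both Control6 libraries and 3 had both below, where 45.2% and 45.3% of all genes did. The median of the members was 1.14, against -0.0069 over all genes. These fold changes followed the GC content of the transcripts (Spearman's rho -0.72 across 11888 genes, which are not independent, all in the same 4 libraries), and each member is therefore given with and without that trend.

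EZH2 measured 83.5 and 58.6 in Control6 and 684 and 824 with pyruvate. This 10.6-fold rise (3.41, SE 0.21, adjusted p = 4.75e-08) was the largest of the members, and it remained called at 2.42 (SE 0.21, adjusted p = 1.12e-06) with the trend on GC content and length removed. EZH1 fell, from 1229.7 and 1276 to 577 and 512, with a difference of -1.20 (SE 0.11, adjusted p = 9.31e-07), and was also called with the trend removed, at -1.02 (SE 0.10, adjusted p = 5.16e-06). The 2 catalytic subunits of PRC2 therefore moved in opposite directions, and the GC content of their transcripts is 44.9% for EZH2 and 50.5% for EZH1.

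SUZ12 measured 41.3 and 68.4 in Control6 and 280.2 and 294 with pyruvate, a difference of 2.41 (SE 0.28, adjusted p = 9.04e-06). Its transcripts are poor in GC (38.1%), and with the trend removed the difference was 0.54 (SE 0.28, adjusted p = 0.11) and no longer passed. EED measured 163 and 226 in Control6 and 359 and 294 with pyruvate, and its difference of 0.76 (SE 0.20, adjusted p = 0.0052) passed but turned to -0.16 (SE 0.21, adjusted p = 0.52) with the trend removed. JARID2 rose from 296 and 271 to 647 and 603. That difference, 1.14 (SE 0.14, adjusted p = 1.16e-05), was of like size with the trend removed, 1.27 (SE 0.13, adjusted p = 5.85e-06). Within PRC2, EZH2, EZH1 and JARID2 were thus called either way, and SUZ12 and EED were not.

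BMI1 measured 58.9 and 58.6 in Control6 and 281 and 252 with pyruvate. The difference of 2.16 (SE 0.24, adjusted p = 5.08e-06) fell to 0.50 (SE 0.24, adjusted p = 0.084) with the trend removed, below the threshold. In these counts BMI1 shares 22.8% of its exon bases with the read-through gene COMMD3-BMI1 on the same strand. RNF2 rose from 61.9 and 71.6 to 353 and 405 (2.49, SE 0.22, adjusted p = 7.46e-07), and with the trend removed it still passed at 0.98 (SE 0.21, adjusted p = 0.0018), just under the limit on size. RNF2, SUZ12 and BMI1 have the 3 lowest GC contents of the members, 36.0%, 38.1% and 40.1%.

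CBX7 fell from 371 and 367 in Control6 to 101 and 89.6 with pyruvate. It was 0.260 of its control level (-1.94, SE 0.20, adjusted p = 2.56e-06), and was called with the trend removed too, at -1.19 (SE 0.20, adjusted p = 2.42e-04). CBX8 measured 446 and 519.7 in Control6 and 363 and 338 with pyruvate, a difference of -0.46 (SE 0.14, adjusted p = 0.012) that passed without being called. With the trend removed it turned to 0.44 (SE 0.14, adjusted p = 0.016), so CBX8 passed as lower with the deposited values and as higher with the trend removed. Its pass was lost with equal library totals (-0.15, adjusted p = 0.36) and without pyruvate replicate 2 (adjusted p = 0.066). CBX7 and CBX8 have the highest GC contents of the members, 59.3% and 57.4%.

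**Figure D3:**
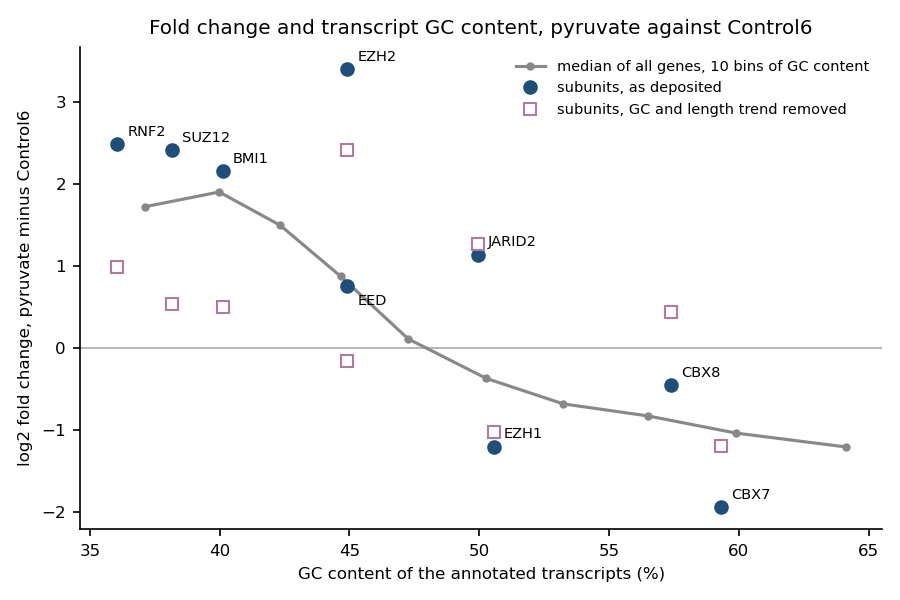
Log2 fold change with pyruvate (vertical axis) against the GC content of the annotated transcripts in percent (horizontal axis). The grey line joins the medians of all genes in 10 bins of GC content, which run from 1.72 in the lowest bin to -1.21 in the highest, filled circles are the 9 subunits and open squares the same subunits with the trend on GC content and length removed. EED and CBX8 lie near or above the line, and EZH2 lies furthest above it.

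The background of all genes went down with GC content, from a median of 1.72 in the lowest of 10 bins to -1.21 in the highest. Across the 9 members themselves the rank correlation of GC content and fold change was -0.87, as a description over genes of the same 4 libraries. Removing the trend took the calls over all genes from 6503 to 3493 and those of the members from 7 to 4. Whether the trend arose in the cells or in library preparation was not tested. Scaling each library to the same total put the all-gene median at 0.30 and the share of calls that were higher at 71.7% in place of 57.3%, and there EZH1 (-0.89) passed without being called and EED (1.07) was called.

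Of the companions, 33 were tested with pyruvate, of which 19 passed as higher and 8 as lower, with 15 and 4 of them called. The other 6 did not pass. Of all genes, 40.6% passed as higher and 40.2% as lower, beside the 31.0% and 23.1% called. The median of the companions was 0.54. The largest rises were those of MGA (43.2 and 28.2 to 434 and 472, 3.66), a partner of variant PRC1, the H3K27 demethylase KDM6A (58.9 and 59.7 to 477 and 502, 3.02) and RYBP (134 and 90.1 to 797 and 831, 2.88), a subunit of variant PRC1. With the trend removed these 3 were 2.13, 1.37 and 1.05, and all were still called. The falls included those of BCORL1 (-1.66) and CBX6 (-1.53), and with the trend removed BCORL1 (-1.03) remained called and CBX6 (-0.79) did not. Over the 33, the calls with the trend removed were 6 higher and 1 lower and the median was 0.19. In the same fit, 1789 of 11888 genes were called higher and 1704 lower.

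The genes of the cell cycle moved beside EZH2. All 18 proliferation genes rose with pyruvate, 15 of them called (median 2.07), and MKI67 went from 161 and 71.6 to 2995 and 2999. CDKN2A fell from 1628 and 2115 to 197 and 212 (-3.18, SE 0.14, adjusted p = 3.33e-09) and CDKN2B from 241 and 329 to 207 and 200.4 (-0.46, SE 0.20, adjusted p = 0.048), the latter not past the limit on size and not passing in edgeR or DESeq2. With the trend removed both INK4 genes were called lower, CDKN2A at -2.23 and CDKN2B further from 0 than with the deposited values (-1.33, SE 0.19, adjusted p = 8.16e-05). Their part in the Polycomb values was not tested. Of the 10 fibroblast markers, 4 rose and 6 fell, 3 and 1 of them called (median -0.28), with summed values of 1275070 and 1185190 in Control6 and 1014230 and 1025250 with pyruvate. With the trend removed 6 were higher and 4 lower (median 0.20), 4 passing each way and 0 called higher and 1 lower.

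The ratio of reads of 2 members within a library is untouched by scaling between libraries, and is given as a description with no test, since 2 libraries against 2 cannot reach a small exact p. The log2 ratio of EZH2 to EZH1 reads was 0.44 and -1.04 in Control2 and -0.36 and -1.44 with A485, which overlapped. It was -0.51 and -0.63 in Control3 and -1.75 and -1.39 with MS-275, lower in both treated libraries. In Control6 it was -3.88 and -4.45, against 0.25 and 0.69 with pyruvate. EZH2 thus gave 0.0558 reads for each read of EZH1 in Control6 and 1.38 with pyruvate, the widest shift of the 3 comparisons. The ratios were not corrected for length or GC content. With the trend on GC content and length removed, the pyruvate fold changes were 2.42 for EZH2 and -1.02 for EZH1, in place of 3.41 and -1.20.

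The CBX8 to CBX7 ratio did not overlap between treated and control libraries in any comparison. Of single genes, 30.4% had both treated libraries above both controls with A485 and 30.7% had both below. These shares were 19.5% and 19.3% with MS-275 and 45.2% and 45.3% with pyruvate. No share was computed for ratios of other gene pairs. The log2 ratio of CBX8 to CBX7 was 1.88 and 0.35 in Control2 and -0.23 and -0.56 with A485. In Control3 it was 0.77 and 0.56, and with MS-275 0.012 and -0.23. In Control6 it was 0.26 and 0.50, and with pyruvate 1.84 and 1.92. The ratio was lower with A485 and with MS-275, where CBX7 was higher, and higher with pyruvate, where CBX7 fell.

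**Figure D4:**
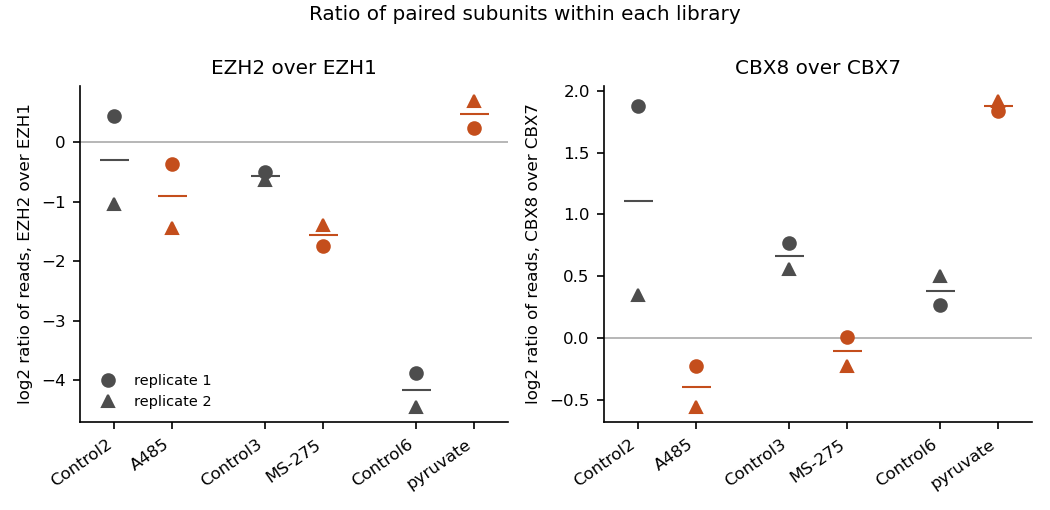
Log2 ratio of reads within each library (vertical axis), EZH2 over EZH1 on the left and CBX8 over CBX7 on the right, for the 6 IMR90 groups. Grey symbols are controls, orange symbols treated libraries, circles and triangles replicate numbers 1 and 2, horizontal marks the means, and the grey line marks equal reads. EZH2 over EZH1 lies near -4 in Control6 alone, and CBX8 over CBX7 is below its control with A485 and MS-275 and above it with pyruvate.

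Levels were compared between members as RPKM, the reads of a gene scaled to its union exon length and to all listed reads of the library (mean ± SD, n = 2 a group, tables normalised and filtered separately). In Control2, RNF2 (7.93 ± 0.931), SUZ12 (7.81 ± 0.809) and BMI1 (7.05 ± 0.504) came first and did not differ beyond their spread. JARID2 (3.85 ± 1.07) and EZH1 (3.76 ± 0.410) followed as near equals, then EZH2 (2.33 ± 1.75), EED (1.96 ± 0.574) and CBX8 (1.96 ± 0.606), and CBX7 (0.511 ± 0.215) was lowest. Control3 had the same first 3, with RNF2 at 6.86 ± 2.62, BMI1 at 6.84 ± 1.68 and SUZ12 at 6.57 ± 5.07, and CBX7 again lowest at 0.854 ± 0.240.

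Control6 stood apart from these untreated groups in order. EZH1 was first (6.07 ± 0.187), then CBX8 (3.97 ± 0.447), CBX7 (1.67 ± 0.00672) and JARID2 (1.54 ± 0.0864). RNF2 (0.579 ± 0.0624), BMI1 (0.453 ± 0.000259), SUZ12 (0.284 ± 0.100) and EZH2 (0.223 ± 0.0543) were the 4 lowest, and SUZ12 and EZH2 did not differ beyond their spread. With pyruvate, JARID2 (4.21 ± 0.216) and RNF2 (4.07 ± 0.385) came first within their spread and CBX7 (0.537 ± 0.0474) last. The 3 untreated groups come from separate tables, and no difference between them was tested.

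These orders depend on the length used, here the union exon length, and the levels were not corrected for GC content. The fold changes of the pyruvate comparison followed GC content, and its part in the order of Control6 was not tested. The union exon length of EZH2, 10774 bases, is far above the 2654 bases of its Ensembl canonical transcript. With canonical lengths for all members, in an alternative chosen after seeing the data, EZH2 had place 2 in Control2 (9.45 ± 7.10) where union length gave place 6, and place 1 with pyruvate (11.9 ± 1.54) where it gave place 5. In Control6 it had place 6 in place of 9, at 0.906 ± 0.220. EED went from place 7 to 2 with pyruvate, from 7 to 3 in Control3 and from 7 to 1 with MS-275, while JARID2 went from 1 to 5 with pyruvate. The first 3 became SUZ12, EZH2 and RNF2 in Control2 and SUZ12, BMI1 and EED in Control3. By either length EZH1 and CBX8 came first in Control6, where RNF2, BMI1, SUZ12 and EZH2 were the 4 lowest, and CBX7 was last in Control2, Control3 and with pyruvate.

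The genes whose values ran most like those of EZH2 over the 12 libraries, each comparison centred on its own mean, were HMGB2, WDR76, NASP, ARHGAP19 and TUBGCP3 (Pearson's r = 0.98 to 0.99), chosen from 9769 genes with a mean of at least 100 in every table. Within the 4 libraries of each comparison, r of HMGB2 with EZH2 was 0.97, 0.97 and 0.999 for A485, MS-275 and pyruvate. For CBX7 they included CALCOCO1, SLC49A4, SNX1 and B4GAT1 (r = 0.98 to 0.99). These values are descriptions over 12 libraries of 6 groups, without a test, and the widest range lay in the pyruvate comparison for EZH2 and in the A485 comparison for CBX7.

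In the annotation of hg38 used here (GENCODE release 44), EZH2 lies at chr7:148807257-148884321, EZH1 at chr17:42700275-42745049, EED at chr11:86201212-86278813 and SUZ12 at chr17:31937007-32001038. JARID2 lies at chr6:15246069-15522042, BMI1 at chr10:22321099-22331484, RNF2 at chr1:185045526-185102603, CBX7 at chr22:39120167-39152680 and CBX8 at chr17:79792132-79801683. Each is a protein-coding gene counted over exons. SUZ12 has a pseudogene, SUZ12P1, with which it may share reads, so its values are uncertain to that extent.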

How the data were processed

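Bulk RNA sequencing of 12 IMR90 libraries (6 groups of 2) was used, and 8 libraries of mouse muscle were not used here. Per the submitters' processing notes, tools named are Trim Galore 0.6.10, HISAT2 2.2.1, SAMtools 1.7, featureCounts 2.0.6 and DESeq2 1.34.0. The authors aligned reads to hg38, counted them per gene and divided the counts by a library size factor, and the deposited values are that signal. Which annotation and strand setting served for counting is not given in the sources used here, so overlapping and antisense genes may share reads. The study names 2 sequencing providers without saying which made which library.

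All values (100%, within 0.01 of a read) came out as whole reads, 24179065 to 46971227 per library. Replicates differed by more than sampling noise. A gene was tested where its mean over a comparison's 4 libraries reached 10, with limma 3.58.1 in R 4.3.3 on log2(value + 1), with eBayes, an intensity trend and Benjamini-Hochberg adjustment over all genes tested. On this scale the change of low genes is understated. Calls needed an adjusted p under 0.05 and an absolute log2 fold change above 1. edgeR 4.0.16 and DESeq2 1.42.0 were run on the recovered reads, and scripts were tested on simulated data. GC content and union exon length came from GENCODE release 44, and their trend was removed per library with splines of 5 degrees of freedom.

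The members and the lists were chosen with earlier results of these data known. All 10 members are named. Companions are named where they passed, up to the 3 largest rises and 3 largest falls, or, with none passing, the 3 largest on one side within both replicate numbers. MKI67, TOP2A, CDKN2A and CDKN2B are always named, and the 5 genes most like EZH2 and CBX7. A companion and a gene like CBX7 that these rules name are not reported here. Of the markers of other cells, leukocyte markers were not listed in the A485 and pyruvate tables, and 1 was listed, untested, with MS-275. Endothelial markers summed to at most 203 per library and epithelial markers to at most 3595.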

Additional observations from a re-analysis of the deposited data

How the results depend on the processing

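No label says what a replicate number marks and 2 pairs are too few to tell, so the number was left out of the main fits. The correlation of same-numbered deviations was 0.32 for A485, 0.73 for MS-275 and 0.0020 for pyruvate. With a replicate block, members called were 1, 1 (EZH2, -1.26, adjusted p = 2.68e-05) and 7, and genes called 2486, 2183 and 6513, in the order A485, MS-275, pyruvate. Under the block, 5 members passed with MS-275, and EED passed with A485 (0.76, adjusted p = 0.03). The share of all genes that passed under the block was not computed, so these passes have no background beside them.

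With A485, members called were 2 at a log2 limit of 0.58, 3 with equal library totals and 0 without the intensity trend, where genes called were 2585 with equal totals and 840 without the trend (1667 as reported). EZH2 turned to 0.17 with equal totals and 0.035 with the GC and length trend removed, and RNF2 to -0.061 with the latter. With MS-275, DESeq2 called 575 genes, and CBX8 was 0.076 with quantile normalization and 0.0098 by DESeq2. With pyruvate, removing the GC and length trend left 4 members and 3493 genes called and turned EED to -0.16 and CBX8 to 0.44. EZH1 was not called with equal totals (-0.89), nor JARID2 with quantile normalization (0.75), and EED was called with equal totals (1.07). The share of calls that were higher went from 31.9% to 42.6% with quantile normalization for A485 and from 57.3% to 71.7% with equal totals for pyruvate. The cause was not tested.

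Leaving out 1 library at a time, which leaves a lone library assumed to vary like the other group, gave 0 members called with A485 and MS-275 and 7 with pyruvate, and 117 to 844, 0 to 419 and 6365 to 6484 genes called. Directions turned with A485 for EZH2 (-1.005 to 0.55), RNF2 (-0.034 to 0.38) and CBX8 (-0.022 to 0.47). With MS-275 they turned for EED (-0.35 to 0.10), SUZ12 (-1.44 to 0.34), RNF2 (-0.51 to 0.30) and CBX8 (-0.28 to 0.27). Leaving out 1 library there also unbalances the replicate numbers, whose deviations ran together (0.73). Within numbers 1 and 2, SUZ12 was -0.56 and -0.53 and RNF2 -0.13 and -0.088, while EED and CBX8 changed sign. With pyruvate no member turned, and the pseudocount, the filter on low values and edgeR changed no member's call in any comparison. BMI1, which passed with A485 without being called, no longer passed in limma without the filter (adjusted p = 0.0503). The least depth behind a member was in Control6, where EZH2, SUZ12, BMI1 and RNF2 rest on 42 to 85 reads per library.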
